A study of Mus musculus with 8 samples.

Results

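Among H3K4me3 regions of middle width in the adult mouse testis, 334 were pulled in at one end and kept at the other when the histone gene H3f3b was missing. They were found among 16519 regions in the union of all lists. On chromosomes 1 to 19 that union held 16000 regions, of which 9206 were a single region in each of 4 libraries. In 3535 of those both wild-type widths were at least 1500 and below 3000 bp, and these are called mid-width regions here. A member has an edge whose mean position in the null libraries lay within 150 bp of the wild-type mean (the held edge), and another edge at least 400 bp inside the wild-type mean (the trimmed edge). The edges of all 4 libraries chose the members, so the shifts and widths of the members between genotypes are given as a description, with no test.

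The libraries were made by ChIP-seq, in which chromatin fragments bound by an antibody are sequenced, from whole testes of adult C57BL/6 mice. The null group (KO) was H3f3b null with the libraries KO 67 and KO 73, and the wild-type group (WT) was H3f3b WT/WT with the libraries WT 66 and WT 74. The series also has 4 input libraries, which were not analysed here. Nothing in the labels says how the null allele was made or that each number is a separate animal, so the spread between libraries of a genotype may be technical. Whole testis is a mixture of germ cells and somatic cells, so fewer cells of a type and less of the mark per cell cannot be told apart.

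H3K4me3 is the trimethylation of lysine 4 on the tail of histone H3. It is laid down by methyltransferases of the SET1 and MLL families and sits on the nucleosomes that flank the starts of active genes, often on CpG islands. Its spread upstream and downstream of a start need not be equal, and divergent promoters carry it on both sides of a shared gap. H3f3b and H3f3a encode the same protein, H3.3, the variant that chaperones such as HIRA and DAXX with ATRX put into chromatin outside DNA replication. In the testis, chromatin is rebuilt through meiosis and again when protamines take the place of most histones in spermatids. The regions are placed in the mm9 build. The gene table at hand is of another build, so no region is tied here to a gene, to a strand or to a sequence, and left and right mean only the lower and the higher coordinate.

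The lists held 10502 regions in KO 67 and 12497 in KO 73, against 14078 in WT 66 and 14551 in WT 74, and the narrowest region was 501 bp in each. The absolute depth is unknown. The authors' deposited score rose in whole multiples of 1 step per library, and if a step is 1 tag and the lists were scaled alike, which is not stated, KO 67 was sequenced 4.46 times as deeply as KO 73, against 1.66 times for WT 66 and 1.04 times for WT 74. KO 67 thus stands apart by depth on that reading. Without it the same limits gave 429 regions, out of mid-width regions chosen again from the remaining libraries. Across the 3535 mid-width regions the left edge of KO 73 lay a median 43 bp to the right of that of KO 67. The right edge of KO 73 lay a median 12 bp to the left. In these signed medians opposite differences cancel, and the median distance between the KO libraries over all mid-width edges was 107 bp.

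Most mid-width regions were drawn in a little at both ends. The median inward shift of the KO mean edge was 134 bp at the left and 122 bp at the right over all 3535 regions. Both edges were held in 1172 regions (33.2%), and at least one edge moved in by 400 bp or more in 736 (20.8%). Of these 736, 334 were held at the other edge and are the members, which are 9.45% of the mid-width regions. A further 307 moved in at the other edge by more than 150 bp but less than 400 bp, 85 moved in by 400 bp or more at both edges, and 10 extended outward by more than 150 bp at the other edge. Trimming on one side was therefore one end of a continuous spread and not a separate cloud of points. Where the left edge was trimmed the median shift at the right was 176 bp (412 regions), and where the right edge was trimmed the median shift at the left was 189.5 bp (409 regions), both above the medians over all mid-width regions. Across regions, the left and right shifts had a Pearson r of 0.155 (3535 regions that share the same 4 libraries, a description). With a library left out, the same limits gave 527 regions without WT 66, 576 without WT 74 and 395 without KO 73. The mid-width regions were chosen again each time, without the single-region and width limits of the library left out. The sizes of those sets were not recorded, so these counts have no shares and nothing is read from their rise. The reverse pattern, with one edge held and the KO edge at least 400 bp outside the WT edge, was seen in 1 region.

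**Figure D1:**
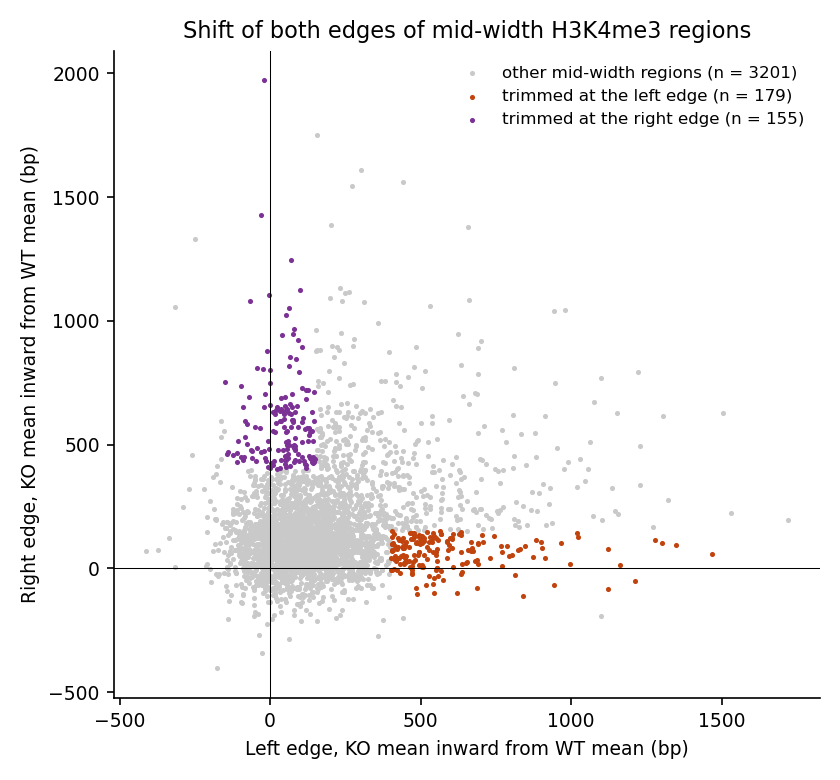
Inward shift (bp) of the KO mean edge from the WT mean edge at the left (x axis) and the right (y axis) of each of the 3535 mid-width regions, where positive values mean a KO edge inside WT. The 334 members lie along the axes past 400 bp, 179 of them at the left and 155 at the right, and join the cloud of other regions without a gap.

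At the trimmed edge, the median inward position relative to the WT mean was 579 bp in KO 67 and 525 bp in KO 73, against -15.5 bp in WT 66 and 15.5 bp in WT 74. KO 67 ranged from 109 to 1591.5 bp and KO 73 from -175.5 to 2415.5 bp, against -510.5 to 475 bp in WT 66 and -475 to 510.5 bp in WT 74. The averaged shift ran from 401.5 to 1973 bp with a median of 540 bp, which took a median 26.1% of the WT width (from 13.7% to 80.4%). The held edge lay a median 55.5 bp inside the WT mean in KO 67 and 61.25 bp in KO 73, against -23.75 bp in WT 66 and 23.75 bp in WT 74. Both KO edges lay inside both WT edges at the held side in 76 of the 334 members and outside both in 10, where 49.5% of all edges of mid-width regions had both KO edges inside. The rule holds this edge near the WT mean, and nothing is read from the count.

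**Figure D2:**
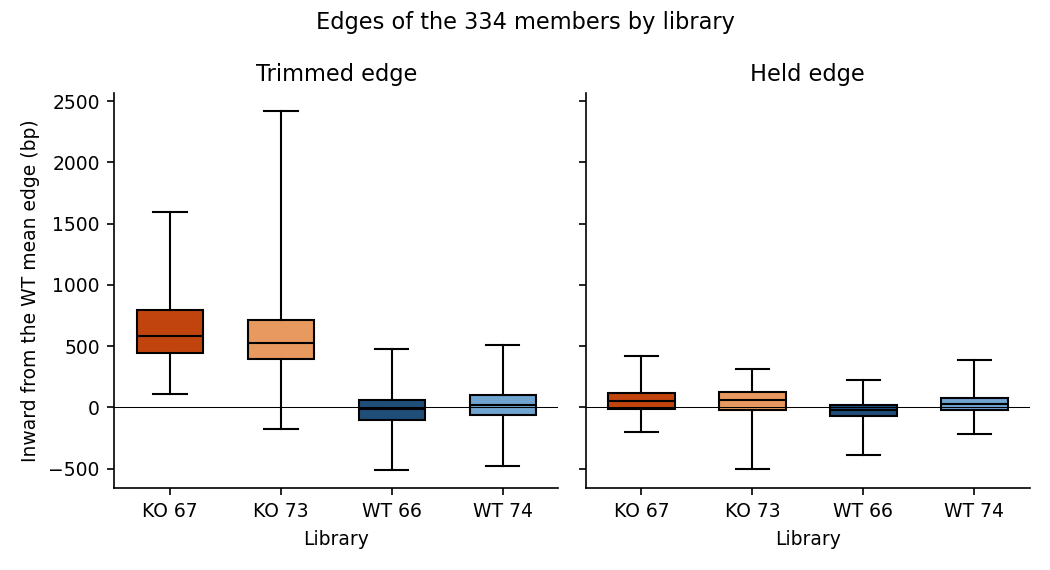
Position of the trimmed edge (left panel) and the held edge (right panel) of the 334 members in each library, in bp inward from the WT mean edge. Boxes span the quartiles with the median as a line and whiskers reach the lowest and highest member; the KO medians of 579 and 525 bp at the trimmed edge follow from how the members were chosen.

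The width of the members was a median 1444 bp in KO 67 and 1548 bp in KO 73, against 2173 bp in WT 66 and 2043 bp in WT 74. All mid-width regions had medians of 1736 and 1691 bp in the KO libraries and 2080 and 1939 bp in the WT libraries. In WT the members were thus slightly wider than the mid-width regions as a whole, and in both KO libraries narrower. Both KO widths lay below both WT widths in 299 members, a separation seen in 62.5% of all mid-width regions, and the rule used these widths. The share of members rose with WT width, from 125 of 1718 regions with a mean WT width of 1500 to below 2000 bp (7.28%) to 145 of 1376 from 2000 to below 2500 bp (10.5%) and 64 of 441 from 2500 to below 3000 bp (14.5%). Their median shift over these bins was 511, 537 and 586.5 bp, values that the 400 bp limit bounds from below in every bin. The bins come from the same WT edges as the rule, and a fixed limit of 400 bp is a smaller part of a wider region. Nothing is therefore read from the rise in the share.

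The averages can hide disagreement between the KO libraries. The KO 67 edge alone lay at least 400 bp inside the WT mean in 86 members and the KO 73 edge alone in 57, while both did so in 191. The same shares over all mid-width edges were not computed. In 6 members one KO edge lay outside the WT mean edge, and each time it was that of KO 73. Both KO edges lay inside both WT edges at the trimmed side in 306 members, against the same 49.5% of all mid-width edges, and in 28 the edges of the genotypes overlapped. The median distance from the innermost WT edge to the outermost KO edge was 317.5 bp over the 334 members. Every KO edge lay at least 400 bp inside every WT edge in 111 members, where 4.26% of all mid-width edges did so. The rule used these edges, and nothing is read from any of these counts.

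Only 28 of the 334, out of 3535 mid-width regions, met both limits in every pairing of a KO library with a WT library. The rule used these edges, and nothing is read from this count. They lay on 18 chromosomes, 18 trimmed at the left and 10 at the right, with averaged shifts from 543 to 1430 bp and a median of 652 bp. Their median widths were 1418.5 bp in KO 67 and 1400.5 bp in KO 73, against 2180.5 bp in WT 66 and 2226 bp in WT 74. Among the regions described below, those on chromosomes 4 and 18 with large shifts and the sharp one on chromosome 3 belong to these 28.

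The largest shift at the left edge was on chromosome 2 (164646694 to 164649227), where the region spanned 763 bp in KO 67 and 979 bp in KO 73, against 2255 bp in WT 66 and 2534 bp in WT 74. Its left edge lay 1525 and 1409 bp inside the WT mean in the KO libraries, while its right edge lay 106.5 and 6.5 bp inside. On chromosome 11 (115674327 to 115676954) the left edge lay 1355 bp inside in KO 67 and 1338 bp inside in KO 73, against 34 and -34 bp in WT 66 and WT 74. The 2 KO libraries agreed to 17 bp there, and the genotypes stood 1304 bp apart at their closest. A second member of that chromosome (115884143 to 115886287) spanned 752 and 801 bp in KO 67 and KO 73, against 1980 and 1902 bp in WT 66 and WT 74. The member on chromosome 9 (108592864 to 108595765) had its left edge at 1342 and 1212 bp in the KO libraries, and although its WT edges were 404 bp apart, the closest edges of the genotypes were 1010 bp apart.

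At the right edge, the largest averaged shift belongs to a region in which the libraries did not share a shape. On chromosome 7 (52672916 to 52675995) the KO 67 and KO 73 regions were both 501 bp wide and did not overlap each other, the single member of which this was true, against WT regions of 2681 and 2228 bp. Its left edge lay 423 bp inside the WT mean in KO 67 and at -462 bp, outside it, in KO 73, so it counts as held by its average alone. Its scores of 20.2 in KO 67 and 20.3 in KO 73 were the smallest in those lists, and its shift of 1973 bp is an average over unlike positions. The next, on chromosome 18, met both limits in every pairing. It spanned 501 bp in KO 67 and 804 bp in KO 73, against 2045 bp in WT 66 and 2057 bp in WT 74. Here too the KO 67 region had the narrowest width of its list, and its score of 21.5 was close to the smallest. On chromosome 11 (100301650 to 100303979) the right edge lay 1314.5 bp inside in KO 67 and 1181.5 bp inside in KO 73, against -25.5 and 25.5 bp in the WT libraries. Those on chromosome 6 (90554536 to 90556912) and chromosome 3 (100725257 to 100727691) had averaged shifts of 1125 and 1106 bp, and their outermost KO edges lay 902 and 942 bp inside the innermost WT edge.

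**Figure D3:**
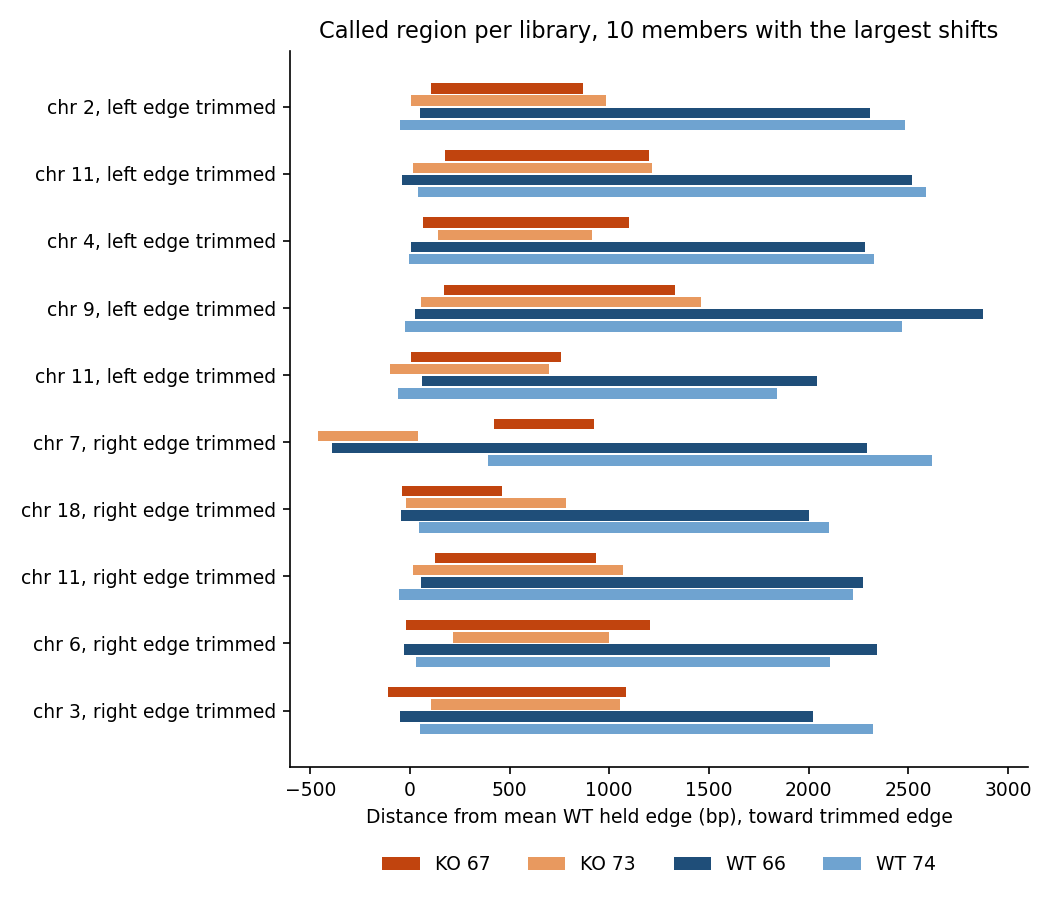
Called region in each library for the 5 members with the largest shift at the left edge and the 5 with the largest at the right edge, drawn in bp from the mean WT position of the held edge toward the trimmed edge. The KO bars end well short of the WT bars in each, and on chromosome 7 the KO bars of 501 bp do not overlap each other.

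The 3 strongest members lost from 13.7% to 21.9% of their WT width at the trimmed edge, below the median of 26.1%. Ranked by the authors' score within each WT list, the first was on chromosome 17 (3082844 to 3085270). Its left edge lay 293 bp inside the WT mean in KO 67 and 761 bp inside in KO 73, so the KO libraries differed by 468 bp. The second, on the same chromosome (80604776 to 80607824), spanned 2278 and 2538 bp in the KO libraries, against 2998 and 2928 bp in the WT libraries. Of all members it had the smallest share of its WT width removed at the trimmed edge. Its held edge, averaged over the KO libraries, also lay 149.5 bp inside the WT mean. The third, on chromosome 10 (118675343 to 118678282), had its left edge 237 and 582 bp inside in the KO libraries. By rank within each list, the median member stood at the 56.5th percentile in KO 67 and the 65.6th in KO 73, against the 74.9th in WT 66 and the 74.8th in WT 74. The medians of all mid-width regions were 73.9, 77.8, 79.5 and 80.2 in the same order, so the members ranked lower in each list. Ranks from lists of different lengths show no change between genotypes. The rule also chose members that were narrow in KO, and how the score goes with width was not examined.

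Where the trimmed edge was sharpest, the libraries of each genotype ended at nearly the same base. On chromosome 11 (115374131 to 115376970) the right edge lay 777.5 bp inside in KO 67 and 808.5 bp inside in KO 73, against -4.5 and 4.5 bp in WT 66 and WT 74. On chromosome 3 (94909125 to 94911137) the left edge lay 570.5 and 535.5 bp inside in the KO libraries, while the WT libraries ended 21 bp apart, and all pairings met both limits. A member of chromosome 4 (41081429 to 41084210) had KO edges 38 bp apart and WT edges 3 bp apart, with an averaged shift of 401.5 bp. That region and one on chromosome 11 (105897216 to 105899961), also at 401.5 bp, were the members nearest the 400 bp limit. Just outside it lay regions on chromosome 4 (21774036 to 21776761) at 399.5 bp and chromosome 7 (35172879 to 35175809) at 398.5 bp. At the 150 bp limit the last members had held edges at 150 bp on chromosome 8 (86670875 to 86673335) and -150 bp on chromosome 9 (34923550 to 34925569), and the nearest regions outside were at 150.5 bp on chromosome 18 and 151 bp on chromosome 4 (126643998 to 126646798). The narrowest WT width of a member was 1509 bp and the widest 2998 bp, and the nearest regions left out by width alone had WT widths of 1499 and 3001 bp.

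The distance between the 2 libraries of a genotype comes from the same edge positions as the rule, and an average over 2 libraries is more easily extreme where one of them lies far out. It is therefore given as a description. At the trimmed edge it had a median of 179 bp in KO and 154 bp in WT, and at the held edge of 105 bp in KO and 104 bp in WT. Over all edges of mid-width regions the medians were 107 bp in KO and 115 bp in WT. A gap of 400 bp or more between the libraries of a genotype was seen at 27.5% of the trimmed edges in KO and 15.9% in WT, where the shares over all mid-width edges were 6.58% in KO and 6.21% in WT. These values show how far the libraries behind each average lay apart, and nothing more is read from them.

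With the same limits applied to single libraries, KO regions lay one-sidedly inside WT regions more often than one library of a genotype lay inside the other. Of the 3535 mid-width regions, 431 were trimmed on one side in KO 67 against WT 66, 409 in KO 67 against WT 74, 445 in KO 73 against WT 66 and 404 in KO 73 against WT 74. Within a genotype the counts were 187 for KO 67 inside KO 73, 86 for KO 73 inside KO 67, 193 for WT 74 inside WT 66 and 63 for WT 66 inside WT 74. Each count of a KO library inside a WT library thus exceeded each count within a genotype, taken one direction at a time, by at least 2.09 times. In the other direction, a WT library lay one-sidedly inside a KO library in 2 to 16 regions, but the width window was set on the WT libraries, so the directions are not on an equal footing. With 2 libraries a genotype the smallest p of an exact permutation test is 0.33, and none was run.

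**Figure D4:**
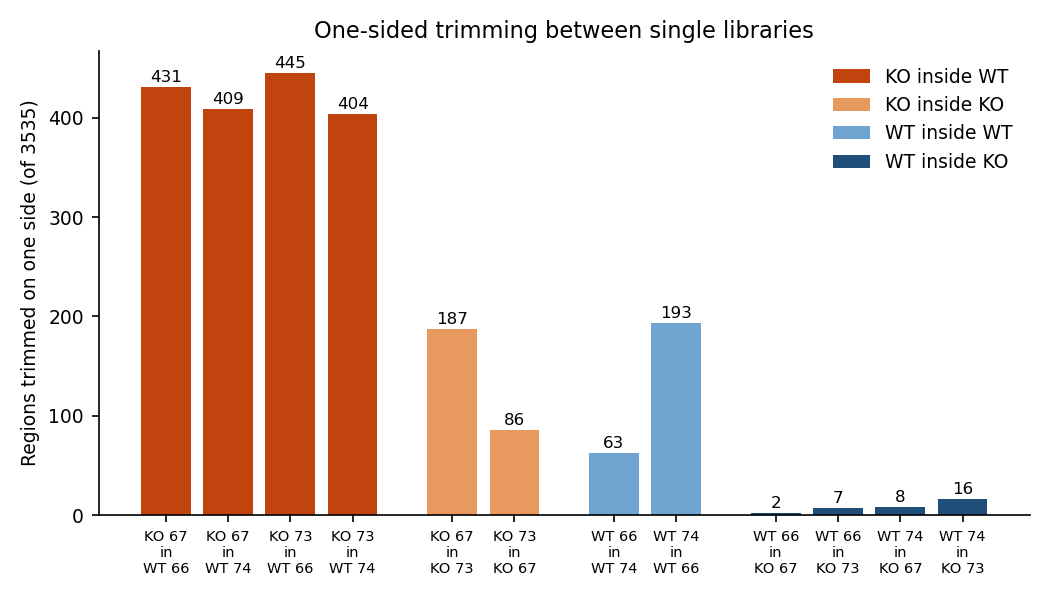
Number of the 3535 mid-width regions in which one library lay inside another with one edge within 150 bp and the other at least 400 bp inside, for each ordered pair of libraries. The 4 pairs with KO inside WT range from 404 to 445, above the 63 to 193 of pairs within a genotype.

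To measure the edges in libraries that had no part in choosing them, regions were chosen by 1 KO and 1 WT library and read in the other 2. Chosen by KO 67 and WT 66, 431 regions had the same edge a median 233 bp inward in KO 73 relative to WT 74. The opposite edge, held in the choosing pair, was a median 115 bp inward, and all edges of mid-width regions were a median 112 bp inward. The trimmed edge therefore stayed further in than other edges, by less than the 400 bp that chose it, while the held edge moved like any other edge. It lay inward by any amount in 79.1% (95% exact binomial interval 75.0 to 82.9), where 73.2% of all edges did, and by 400 bp or more in 31.8% (27.4 to 36.4), where 12.3% of all edges did and 9.28% of the held edges. Such intervals cover counting error only, since all regions share the same 4 libraries. Chosen by KO 67 and WT 74 and read in KO 73 and WT 66, 86.3% (82.6 to 89.5) of 409 trimmed edges lay inward and 40.3% (35.6 to 45.3) by 400 bp or more, where 83.4% and 16.5% of all edges did. Chosen by KO 73 and WT 66, the shares among 445 regions were 81.8% (77.9 to 85.3) and 31.5% (27.2 to 36.0), where 70% and 12.5% of all edges did. Chosen by KO 73 and WT 74, they were 91.6% (88.4 to 94.1) and 38.4% (33.6 to 43.3) of 404 regions, where 83% and 15.3% of all edges did. At 400 bp the share of the trimmed edges was thus above that of all edges in each of the 4 ways, as it was for inward by any amount. With KO 67 and WT 74 choosing, the interval for inward by any amount held the 83.4% of all edges. The 4 ways reuse the same 4 libraries and are not separate repeats, so these comparisons are a description. Over all 4 ways of choosing, the median shift ran from 201 to 294.5 bp at the trimmed edge, from 93 to 159 bp at the held edge and from 80 to 166 bp over all edges. The one-sided shape itself returned on the same side in 69 of the 431 regions (16.0%) and on the opposite side in 11 (2.55%), while 11.4% of all mid-width regions were trimmed on either side in that pair. Over the 4 ways, from 16.0% to 18.6% returned on the same side and from 2.55% to 4.40% on the opposite side. In the pairs read, 11.4%, 12.6%, 11.6% and 12.2% of all mid-width regions were trimmed on either side. These last shares count both sides together, so they are not like the shares of a single side. At a given side, from 160 to 265 of the 3535 mid-width regions were trimmed in those pairs. The mid-width window used both WT libraries, so this choice was not wholly free of the libraries that were read, and with 1 library a genotype left there is no test.

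**Figure D5:**
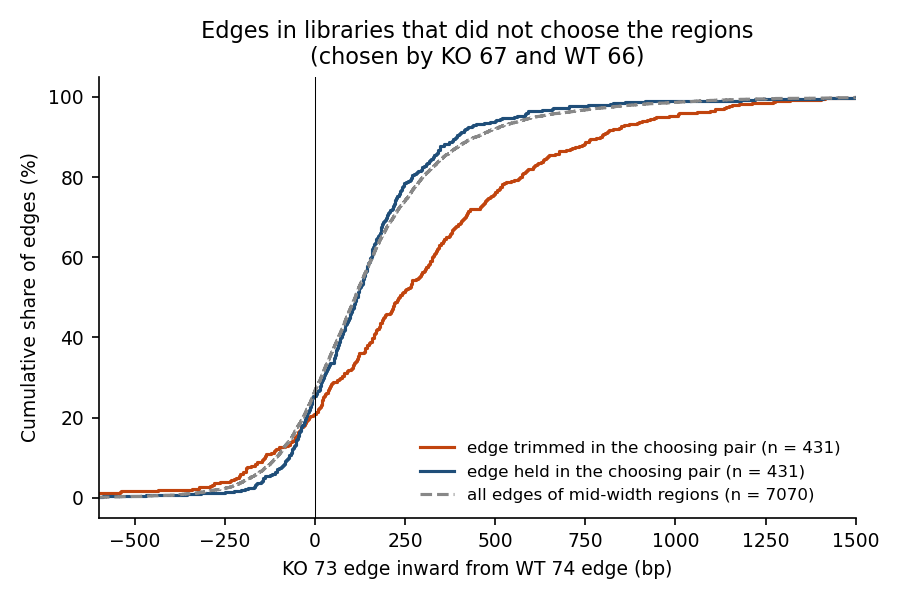
Cumulative share (%) of edges by their inward shift (bp) in KO 73 relative to WT 74, for regions chosen as trimmed on one side by KO 67 and WT 66. The curve of the trimmed edges (median 233 bp) lies to the right of those of the held edges (115 bp) and of all 7070 mid-width edges (112 bp), which nearly coincide.

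The members were split almost evenly between the sides, 179 at the left edge and 155 at the right, or 53.6% at the left (95% exact binomial interval 48.1 to 59.0). The median shift was 527 bp at the left and 554 bp at the right. The share at the left was 47.3% without KO 73 and 59.4% without KO 67, and the side went with the library: KO 73 was trimmed at the left in 265 and at the right in 180 regions against WT 66, and in 244 and 160 against WT 74, whereas KO 67 was trimmed at the left in 219 and at the right in 212 against WT 66, and in 199 and 210 against WT 74. The rightward offset of the KO 73 left edge given above moves with this, and its part was not tested.

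In these lists more members had a second region close by beyond the trimmed edge than beyond the held edge. The nearest neighbouring WT region, from either WT list, lay within 2000 bp of the trimmed side in 24 members, 7.19% (4.66 to 10.5), and of the held side in 8, 2.40% (1.04 to 4.66). Among all edges of mid-width regions the share was 2.07% (1.75 to 2.43). Within 1000 bp it was 4.79% (2.76 to 7.66) on the trimmed side and 1.80% (0.662 to 3.87) on the held side, where 1.06% of all edges had one. The contrast between the sides was smaller at longer distances. Within 5000 bp the shares were 12.3% (8.95 to 16.3) and 8.08% (5.39 to 11.5), where 5.70% of all edges had one, and within 10000 bp they were 19.2% (15.1 to 23.8) and 14.1% (10.5 to 18.3), where 12.3% did. The intervals of the sides overlapped at 1000, 5000 and 10000 bp and only narrowly at 2000 bp, and these distances were chosen after the values had been seen. Most members had no close neighbour on either side, with a median distance of 42911 bp on the trimmed side and 44580.5 bp on the held side, and the trimmed side faced the nearer neighbour in 55.1% (49.6 to 60.5). Of the 24 close neighbours on the trimmed side, 13 were found in both KO libraries and 9 in neither, and 5 of those 9 were also missing from one WT list. The 13 include regions that are themselves members, which the rule requires in every library. Among them are both regions of a facing pair on chromosome 4, each counted as the neighbour of the other, and a member on chromosome 6. On the held side 4 of the 8 were found in neither KO library. Over all mid-width edges with a neighbour this close, 74 of 146 (50.7%) were found in neither, and 52 of those 74 were in only 1 WT list.

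Among 315 successive pairs of members, 3 lay within 10000 bp of each other. The same share over all mid-width regions was not computed, so nothing is read from that count. The closest pair faced each other across a short gap on chromosome 4. The lower region (125998159 to 126000245) was trimmed at its right edge, by 741.5 bp in KO 67 and 468.5 bp in KO 73, against -130.5 and 130.5 bp in WT 66 and WT 74. The upper one (126000949 to 126003281) was trimmed at its left edge, by 1208 and 1393 bp in the KO libraries, against 23 and -23 bp in the WT libraries. Both outer edges were held, so the 703 bp between their WT extents was widened from both sides in both KO libraries. This pair was singled out after its values had been seen. On chromosome 6, a pair 1729 bp apart (124754627 to 124756864 and 124758594 to 124760550) was trimmed at the right edge of both regions.

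Members were found on all 19 autosomes, as 5.93% of the mid-width regions of chromosome 16 (7 of 118, interval 2.42 to 11.8) at the lowest and 13.5% of those of chromosome 5 (36 of 267, 9.63 to 18.2) at the highest. These intervals overlap, and no chromosome is singled out by them. The sides were uneven on some, with 3 at the left and 14 at the right on chromosome 17, and 15 at the left and 4 at the right on chromosome 15. These splits were picked from 19 after they had been seen and were not tested.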

How the data were processed

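H3K4me3 ChIP-seq region lists of 2 KO and 2 WT testis libraries were used. Bowtie, HOMER and the build mm9 are named per the submitters' processing notes. No version, setting or use of the inputs is given in the sources used here. Each library has its own list, so regions were not called on pooled reads. The deposited score is the authors' own value per region, with no stated scale. It was used to rank regions within a list, and its step to set the depths of the libraries side by side. The step was found as the largest value of which all scores below 100 were whole multiples within 0.06.

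Overlapping or touching regions were merged into union regions, and the limits on widths and edges were applied to the start and end columns. Printed starts count from 1. Inward shifts are positive where an edge lies inside the mean WT edge. Neighbours are the next WT regions outside the outermost WT edges. The merging and the limits were tested on simulated lists. The members and lists were chosen with earlier results of these data known. Named regions were the 5 largest shifts at each edge among members whose KO edges both lay inside both WT edges, the 3 highest WT score ranks, the 3 tightest trimmed edges and the 2 regions on either side of each edge limit; coordinates on chromosome 18 are not reported here. Depth is unknown, so precision is given by exact (Clopper-Pearson) intervals of counts and by the spread between libraries. Python 3.11.15, numpy 2.4.6, pandas 2.3.3, scipy 1.17.1 and matplotlib 3.10.9 were used. Alternatives changed the limits, the merging, the score threshold and the libraries.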

Additional observations from a re-analysis of the deposited data

How the results depend on the processing

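The 334 members depend on the 400 bp limit, with 582 at 300 bp (median shift 432.75 bp) and 198 at 500 bp (633 bp). Requiring every KO library against every WT library left 28 members, 64.3% trimmed at the left, with a median shift of 652 bp. Leaving out each library gave from 395 to 576 members, from 47.3% trimmed at the left without KO 73 to 59.4% without KO 67. The median shifts ran from 544 to 583.5 bp. Leaving out WT 66 (527 members) or WT 74 (576) each moved the number by over 1.5 times. The set of mid-width regions was also chosen again without the library left out, so these numbers have no common base. Of the members left by each library's absence, 196 (without KO 67) to 231 (without KO 73) were also among the 334 on the same side, 58.7% and 69.2% of the 334. As a share of the newly chosen list, the shared regions were 45.7% without KO 67 and 58.5% without KO 73. They were 43.1% without WT 66 and 38.2% without WT 74. Other tolerances of the held edge, other width windows, merging across 500 bp, a stricter score threshold and dropping the 6 members with a KO width of 501 bp (chosen after seeing the data) gave from 230 to 435 members.

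Edges in libraries that did not choose the regions were a median 233 bp inward when KO 67 and WT 66 chose, 290 bp (86.3% inward) when KO 67 and WT 74 chose, and 294.5 bp (91.6% inward) when KO 73 and WT 74 chose. The mean count of one-sided differences was 422 for KO inside WT, 136.5 between KO libraries, 128 between WT libraries and 8.25 for WT inside KO (added after seeing the data). The cause was not tested in any of these. No paired analysis was possible because KO and WT libraries share no numbers.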

Other observations

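The X chromosome, which is silenced in male meiosis and lies outside the rule for the members, held 46 mid-width regions by the same limits, and 14 of them were trimmed on one side, 30.4% (95% exact binomial interval 17.7 to 45.8), where 9.45% were on the autosomes. Of these, 3 were trimmed at the left edge and 11 at the right. The median inward shift over all X mid-width edges was 196 bp, against 127.5 bp on the autosomes. The largest was on X from 121321628 to 121324041, which spanned 846 and 501 bp in the KO libraries, against 1923 and 2376 bp in the WT libraries, with its left edge shifted by 1399 bp. The region on X from 95345107 to 95347493 spanned 626 and 942 bp in the KO libraries, against 2004 and 2351 bp in the WT libraries, with its right edge shifted by 1288.5 bp. Several of the 14 lay near each other, with starts at 121321628, 121492877, 121742353 and 122310699, and at 147954521 and 148237338. The interval takes regions as independent and covers counting error only. How the 46 regions are spread along X was not examined, so the share is not read as one of the whole chromosome. These counts were made after the autosomes had been seen, and the difference between X and autosomes was not tested.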
